A study of Mus musculus with 6 samples.

Results

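The genes described here encode the mitochondrial carriers of the solute carrier 25 family together with the channels and carrier-like proteins of the outer mitochondrial membrane. They were chosen by symbol alone, as the Ensembl genes named Slc25a followed by a number, Ucp1 to Ucp3, Mtch1, Mtch2 and Vdac1 to Vdac3, without the pseudogene Slc25a5-ps. The rule gave 55 of the 60193 genes listed, and all 55 were protein-coding in the GENCODE annotation of GRCm39. RNA-seq had been carried out on MII oocytes, the stage at which a mature oocyte is arrested before fertilization, from ICR mice aged 42 to 45 weeks, which served as donors of advanced reproductive age. The IVM group had been taken as GV oocytes, the immature stage, from mice given 5 IU of PMSG 46 h earlier, stripped of cumulus cells and cultured in M16 medium for 12 h. The IVO group had been ovulated after PMSG and 5 IU of hCG and was collected from the oviduct 14 h after hCG, with cumulus cells dispersed by hyaluronidase. Each group held 3 samples, each a pool of 20 oocytes from 3 mice, and no genetic change is named for either group. P-values measure the spread between these pools. The groups differed at once in where the oocytes matured, in hCG, in the presence of cumulus cells and in time, and these cannot be told apart.

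The carriers of this family sit mostly in the inner mitochondrial membrane, which is otherwise closed to charged metabolites, and exchange nucleotides, phosphate, organic acids, amino acids and cofactors between the matrix and the cytosol. ADP/ATP carriers export the ATP made by oxidative phosphorylation, the phosphate carrier supplies the phosphate for it, and the uncoupling protein Ucp1 lets protons return without ATP synthesis. The voltage-dependent anion channels encoded by Vdac genes are the general pores of the outer membrane. A fully grown oocyte makes little new RNA while it completes meiosis and draws on stored transcripts, and it relies on its mitochondria for ATP.

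All 10 oocyte markers examined, such as Gdf9 and Bmp15, were above 1 FPKM on average. Their summed FPKM, 20337 to 26358 for IVM and 20511 to 23217 for IVO, was mostly Oosp1 and Dppa3, while Zp1, Zp2, Zp3, Nlrp5, Mos and Bmp15 were lower in every IVO sample than in any IVM sample, Zp3 at 326 to 892 FPKM for IVM and 58.5 to 65.1 FPKM for IVO. The 14 cumulus or granulosa markers summed to 24.4 to 35.2 FPKM in IVM and 32.8 to 37.5 FPKM in IVO samples, with Cyp19a1 (16.3 to 23.1 FPKM), Fshr (6.14 to 16.3 FPKM) and Kitl (1.14 to 2.5 FPKM) above 1 FPKM on average and Amh at 0 throughout. Of the genes of expanded cumulus cells, Has2 reached 0.14 FPKM in IVM and 0.37 FPKM in IVO, Ptx3 0.03 and 0.17 FPKM and Tnfaip6 0.14 and 0.49 FPKM, each higher in IVO without overlap, while Ptgs2 reached 0.19 and 0.5 FPKM, with overlap. The 5 oviduct markers summed to 2.76 to 3.04 FPKM for IVM and 3.26 to 5.58 FPKM for IVO. Most of this was Epcam, at 2.69 to 2.88 FPKM for IVM and 2.87 to 5.4 FPKM for IVO. Pax8 was at 0 throughout. The 4 blood markers, none above 1 FPKM on average, summed to at most 0.21 FPKM for IVM and 4.13 FPKM for IVO. The part of cumulus, oviduct or blood cells in the results was not tested. FPKM corrects fragments for transcript length and library size, so levels can be set side by side for different genes. The inferred depth was 16600000 to 19200000 fragments for the IVM and 17800000 to 18100000 for the IVO libraries, and 3 fragments on a transcript of 1000 bases correspond to 0.196 to 0.231 FPKM, counting error only. The inferred mean fragment length was 200 to 220 bases for IVM and 250 to 260 bases for IVO, and its part in the results was not tested.

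The carriers formed a small and uneven part of the oocyte transcriptome. Summed over the 55 genes, their FPKM came to 2053, 2362 and 2079 for IVM and to 1376, 1429 and 1406 for IVO. This was 0.0979%, 0.112% and 0.114% of the summed FPKM in IVM and 0.0882%, 0.0916% and 0.0855% in IVO samples. No IVO pool reached the lowest IVM pool in either measure, which gives p = 0.1 in a two-sided exact permutation test, the smallest value that 3 against 3 samples allow. Slc25a24 and Slc25a30 made up 40.3%, 47.9% and 39.6% of the summed carrier FPKM in IVM and 22.3%, 24.0% and 27.7% in IVO samples. Without these genes, which were picked after their values were seen, the sum was 1237 ± 16.6 FPKM (SD, n = 3) for IVM, against 1057 ± 36.2 FPKM (SD, n = 3) for IVO. The summed FPKM of all genes was 1826738 to 2111776 for IVM and 1560813 to 1643682 for IVO. The lower sum in IVO therefore does not show a lower share of the library, which was not tested for these remaining genes.

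In IVM oocytes the order of mean FPKM began with Slc25a24, Slc25a30, Slc25a5, Slc25a43, Vdac3, Slc25a17, Slc25a31 and Vdac2. In IVO oocytes it began with Slc25a5, Slc25a30, Slc25a24, Vdac3, Slc25a31, Slc25a43, Slc25a17 and Slc25a3. Slc25a24, Slc25a30, Slc25a5 and Vdac3 were thus among the 5 highest in both groups. Among these first 8, neighbours overlapped in their 3 values, except Slc25a30 against Slc25a5 in IVM and Slc25a31 against Slc25a43 in IVO. Averaged over the 6 samples, 9 carriers reached 50 FPKM or more, 15 lay between 5 and 50 FPKM, and 14 between 1 and 5 FPKM.

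**Figure D1:**
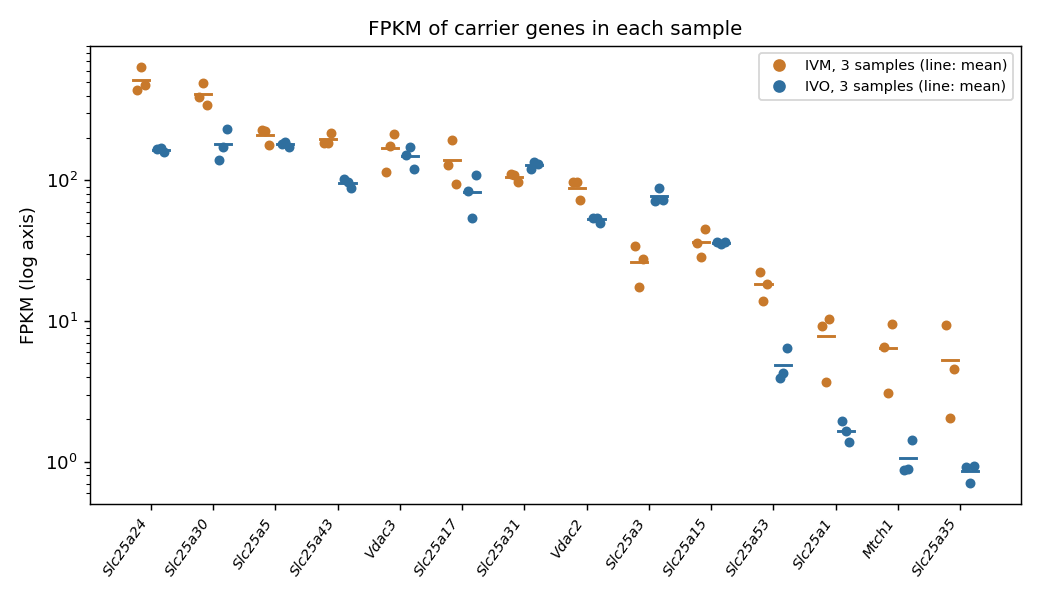
FPKM of 14 carrier genes in each sample on a log axis, with points for the 3 IVM and 3 IVO samples and a line at the group mean. The points of Slc25a24, from 437 to 642 in IVM and from 158 to 171 in IVO, do not overlap, and Slc25a3 is the only gene shown besides Slc25a31 whose IVO points all lie above its IVM points.

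The other 17 genes stayed under a mean of 1 FPKM and were not tested. Of these, 5 were listed at 0 in every sample, namely Ucp1, Ucp3, Slc25a2, Slc25a34 and Slc25a41. Ucp1 and Ucp3 are the uncoupling proteins known from brown fat and muscle. Ucp2, the widely expressed member, was listed at 0.02, 0.01 and 0.43 FPKM in IVM and at 0.17, 0.26 and 0.25 FPKM in IVO samples, above the 0.0413 to 0.0479 FPKM that 3 fragments are worth on its listed length of 3988 bases in 4 of the 6 samples. The mitoferrin Slc25a28, an iron carrier, had 0.56, 0.55 and 0.66 FPKM in IVM and 0.09, 0.13 and 0.18 FPKM in IVO samples, so its groups did not overlap, at levels under the filter, and 2 IVO values lay below the worth of 3 fragments. Its paralog Slc25a37, the mitoferrin of red blood cell precursors, reached at most 0.12 FPKM. Slc25a20, the carnitine/acylcarnitine carrier that brings fatty acids to beta-oxidation, had the highest value of the 17, 0.76 FPKM in 1 IVM sample, and ranged from 0.27 to 0.63 FPKM in IVO samples. The dicarboxylate carrier Slc25a10 stayed at or under 0.29 FPKM, and Slc25a18, Slc25a25, Slc25a27, Slc25a29, Slc25a42, Slc25a45 and Slc25a47 were at or under 0.28 FPKM in every sample.

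The comparison of IVO with IVM asked how the site of maturation relates to the transcripts of these carriers. It was fitted with limma on log2(FPKM + 1) over 18818 genes with a mean of at least 1 FPKM, of which 38 were carriers, and log2FC means IVO minus IVM on that scale, which understates the change of low genes. DEG here means an adjusted p-value under 0.05 together with |log2FC| ≥ 1. Lower DEGs numbered 8 of the 38 carriers (21.1%), against 17.9% of all tested genes. The DEG higher in IVO was Slc25a3 (2.63%), against 0.606% of all tested genes. The lower DEGs included Slc25a24, Slc25a30, Slc25a43, Slc25a53, Slc25a1, Slc25a35 and Mtch1. Without the fold threshold Vdac2 joined them, giving 9 carriers lower against 21.5% of all tested genes and 1 higher against 1.87%. Groups did not overlap in 12 carriers that were lower in IVO (31.6%, all tested genes 32.6%) and in 8 that were higher (21.1%, all tested genes 9.62%). The median log2FC was -0.11 over the 38 carriers and -0.30 over all tested genes. In a pool of oocytes, fewer transcripts per oocyte and a larger share of other transcripts in the library cannot be told apart. Full-length cDNA had been made and amplified with a SMART-Seq Ultra Low Input kit. Whether a transcript was captured as cDNA equally well in both groups, for example at another poly(A) tail length, was not tested.

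Since the median gene was itself lower in IVO, the direction of a small difference depended on how the libraries were scaled. With median-ratio scaling the median log2FC was -0.04 over all tested genes and 0.17 over the carriers, with 4 lower DEGs and 1 higher DEG among the carriers, against 11.3% and 2.05% of all tested genes. With quantile normalization these medians were 0.17 and 0.39, with 4 lower and 5 higher DEGs, against 8.4% and 5.83%. The 5 higher DEGs were Slc25a3, Slc25a13, Slc25a14, Slc25a32 and Slc25a36. Without the fold threshold, 5 carriers were lower and 7 higher with median-ratio scaling (13.2% and 7.14% of all tested genes), and 4 were lower and 10 higher with quantile normalization (10.7% and 14.8%). Over 5 ways of scaling (as deposited, median-ratio, equal sums, quantile, and removal of the trend with gene length), Slc25a24, Slc25a1, Slc25a53 and Mtch1 were DEGs lower in IVO and Slc25a3 was a DEG higher in IVO each time. A total of 29 carriers kept their sign in all 5, and 9 turned, namely Slc25a5, Slc25a22, Slc25a26, Slc25a38, Slc25a48, Slc25a51, Mtch2, Vdac1 and Vdac3. Leaving out IVM replicate 1, IVM replicate 3, IVO replicate 2 or IVO replicate 3 brought the 8 lower DEGs down to 4, while leaving out IVM replicate 2 raised them to 10. The share of all tested genes called lower in the 6 fits was 12.1% to 16.9%. IVM replicate 2 had the lowest value of its group in 25 of the 38 carriers, including 6 of the 8 lower DEGs. The share of all tested genes in which it was lowest was not computed.

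**Figure D2:**
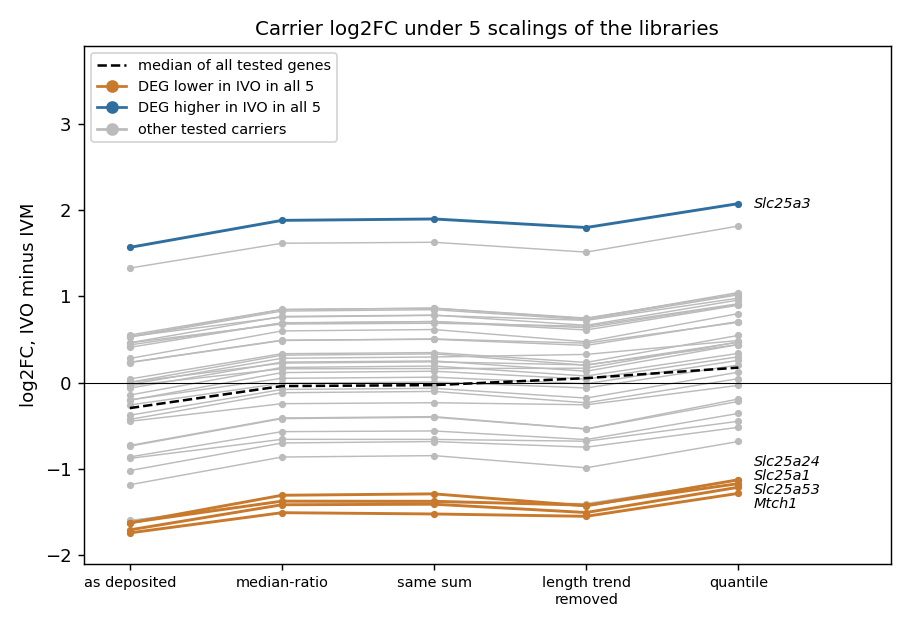
log2FC (IVO minus IVM) of 37 tested carriers under 5 scalings of the libraries, 1 line per gene, with the median of all tested genes as a dashed line. Slc25a3 stays between 1.57 and 2.07 and Slc25a24, Slc25a1, Slc25a53 and Mtch1 stay below -1 in every scaling, while the median of all genes moves from -0.30 to 0.17.

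Among adenine nucleotide carriers, Slc25a24 fell in IVO, and none of the 3 ADP/ATP carriers passed the test by limma as deposited, with unadjusted p under 0.05 for 0 of them. Slc25a24 encodes a calcium-regulated carrier that exchanges ATP-Mg for phosphate and so sets the adenine nucleotide content of the matrix. Located on chromosome 3 of GRCm39 from 109030317 to 109075773, it had 437, 642 and 479 FPKM in IVM and 167, 171 and 158 FPKM in IVO samples. Every IVO value was under the lowest IVM value, with a log2FC of -1.63 (SE 0.19, adjusted p = 0.00216), and the call was kept with each sample left out. Slc25a23, a paralog of the same type, had 4.46, 2.11 and 3.45 FPKM in IVM and 1.10, 1.64 and 1.19 FPKM in IVO samples. Its groups did not overlap, but the adjusted p was 0.0646 at a log2FC of -0.88, and it passed both thresholds with IVM replicate 2 left out. Slc25a54 was low in both groups, with overlapping values between 1.51 and 3.38 FPKM.

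The ADP/ATP carriers were Slc25a4, the form of heart and muscle, Slc25a5, the form of most dividing cells, and Slc25a31, a form known from germ cells. Slc25a5 had 229, 224 and 179 FPKM in IVM and 182, 189 and 174 FPKM in IVO samples, and the groups overlapped. Slc25a31 had 112, 109 and 97.5 FPKM in IVM and 121, 136 and 129 FPKM in IVO samples, without overlap. Slc25a4 was far lower in level, with 12.3, 6.88 and 12.2 FPKM in IVM and 10.2, 9.58 and 11.7 FPKM in IVO samples. The log2FC was -0.21 for Slc25a5 (95% interval -0.60 to 0.19), 0.28 for Slc25a31 (-0.10 to 0.66) and 0.04 for Slc25a4 (-0.58 to 0.66). With median-ratio scaling the sign of Slc25a5 turned, at 0.12. The adjusted p of Slc25a31 was 0.255 as deposited. It was under 0.05 for equal sums (0.0396) and quantile normalization (0.015). It stayed above 0.05 for median-ratio scaling (0.0514) and for removal of the length trend (0.0984). Together the 3 genes had 327 ± 33.7 FPKM (SD, n = 3) for IVM, against 321 ± 11.4 FPKM (SD, n = 3) for IVO as deposited (p = 0.9, exact permutation test). The summed FPKM of all genes was 1826738 to 2111776 for IVM and 1560813 to 1643682 for IVO. Similar FPKM thus need not mean a similar share of the library, and that share was not tested for the 3 genes.

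The phosphate carrier gene Slc25a3 rose in IVO while the citrate carrier gene Slc25a1 fell. Slc25a3, on chromosome 10 from 90951400 to 90975683, had 34.1, 17.4 and 27.4 FPKM in IVM and 71.3, 88.1 and 73.0 FPKM in IVO samples. Its lowest IVO value was above its highest IVM value, the log2FC was 1.57 (SE 0.27, adjusted p = 0.00796), and it was a DEG with each sample left out, at a log2FC from 1.31 to 1.77. For each unit of summed ADP/ATP carrier FPKM, Slc25a3 had 0.0966, 0.0513 and 0.0949 in IVM and 0.227, 0.264 and 0.232 in IVO samples, a ratio that does not change when a library is multiplied by a constant (p = 0.1, exact permutation test, the smallest possible) and that was formed after the values were seen.

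Slc25a1 exports citrate from the matrix for the synthesis of fatty acids and sterols. On chromosome 16 from 17743075 to 17746245, it had 9.27, 3.68 and 10.4 FPKM in IVM and 1.96, 1.65 and 1.39 FPKM in IVO samples, a log2FC of -1.62 (SE 0.37, adjusted p = 0.0198). The adjusted p rose to between 0.053 and 0.0773 with IVM replicate 1, IVM replicate 3, IVO replicate 2 or IVO replicate 3 left out. The other tested carriers of organic acids did not pass. Slc25a11, the oxoglutarate/malate carrier of the malate-aspartate shuttle, had 4.15, 2.85 and 2.95 FPKM in IVM and 4.71, 5.66 and 4.1 FPKM in IVO samples. Slc25a21, which carries oxoadipate, had a log2FC of 0.23 (95% interval -0.38 to 0.84).

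The carriers of cofactors and nucleotides described here had a log2FC from -0.74 to 1.33, and each had an adjusted p above 0.05 as deposited. Slc25a17, the carrier of CoA, FAD and NAD in the peroxisome membrane, was abundant and variable, with 128, 194 and 93.6 FPKM in IVM and 84.0, 54.2 and 109 FPKM in IVO samples. Its values overlapped, with a log2FC of -0.74 (95% interval -1.55 to 0.08, adjusted p = 0.17).

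Slc25a26, which imports S-adenosylmethionine for methylation in the matrix, had 29.1, 25.5 and 28.4 FPKM in IVM and 20.7, 21.8 and 18.6 FPKM in IVO samples, without overlap but at an adjusted p of 0.13. Slc25a16, linked to CoA in the matrix, had 16.2, 12.9 and 18.4 FPKM in IVM and 23.0, 20.1 and 22.9 FPKM in IVO samples. Slc25a32, a carrier of folate and FAD, had 9.68, 7.71 and 13.7 FPKM in IVM and 16.6, 13.9 and 15.3 FPKM in IVO samples. Both were without overlap and both had an adjusted p of 0.149 as deposited. For Slc25a16 it was 0.0333 with median-ratio scaling, 0.0167 with quantile normalization, 0.0458 with the length trend removed and 0.0582 with equal sums. For Slc25a32 these values were 0.0396, 0.0207, 0.0511 and 0.0712.

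Slc25a36, a carrier of pyrimidine nucleotides, had 4.52, 4.18 and 17.95 FPKM in IVM and 30.7, 15.8 and 15.03 FPKM in IVO samples. IVM replicate 3 lay within the IVO range, and the log2FC of 1.33 (SE 0.54) had an adjusted p of 0.122. Without IVM replicate 3 the log2FC was 1.93 with an adjusted p of 0.0255. Its paralog Slc25a33 lay between 1.14 and 2.41 FPKM for IVM and between 2.35 and 3.93 FPKM for IVO, and the NAD carrier Slc25a51 between 2.36 and 6.73 FPKM for IVM and between 2.51 and 3.86 FPKM for IVO, both with overlap.

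None of the 6 tested amino acid carriers was a DEG by limma as deposited, and the log2FC ranged from -0.45 to 0.53. An unadjusted p under 0.05 was found for 1 of them, and the share of all tested genes at that threshold was not computed. Slc25a12 and Slc25a13 encode the aspartate/glutamate carriers that, with the malate-aspartate shuttle, bring the reducing power of cytosolic NADH into mitochondria. Slc25a13 had 14.1, 11.6 and 15.2 FPKM in IVM and 20.5, 22.6 and 17.2 FPKM in IVO samples, every IVO value being above every IVM value. Its log2FC of 0.53 had an adjusted p of 0.109 as deposited, and of 0.0155 to 0.0488 under the other 4 scalings. With quantile normalization Slc25a13 passed both thresholds, at a log2FC of 1.02. Slc25a12 was lower in level and moved the other way, with 2.07, 2.53 and 2.18 FPKM in IVM and 1.71, 1.39 and 1.09 FPKM in IVO samples, an adjusted p of 0.214. The ornithine carrier Slc25a15 of the urea cycle had 36.0, 28.6 and 45.3 FPKM in IVM and 36.6, 35.4 and 36.4 FPKM in IVO samples, a log2FC near 0 with a 95% interval of -0.50 to 0.51. The glycine carrier Slc25a38, needed for heme synthesis, had a log2FC of -0.07 (-0.75 to 0.62), and the branched-chain amino acid carrier Slc25a44 had 0.24 (-0.39 to 0.86). Slc25a22, a glutamate carrier, ranged from 0.76 to 2.45 FPKM over both groups.

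The 2 carriers tied to glutathione import had opposite signs, and neither was a DEG. Slc25a39 had 16.4, 7.10 and 20.2 FPKM in IVM and 5.96, 8.05 and 6.89 FPKM in IVO samples, with IVM replicate 2 inside the IVO range, a log2FC of -0.86 and an adjusted p of 0.139. With IVM replicate 2 left out it passed both thresholds at a log2FC of -1.28. Slc25a40 had 6.99, 5.22 and 7.68 FPKM in IVM and 8.61, 9.11 and 9.38 FPKM in IVO samples, without overlap, at an adjusted p of 0.208.

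Of the genes grouped with the uncoupling proteins, Slc25a30 and Slc25a14 carried nearly all transcripts and differed in direction. Slc25a30, first described in kidney, had 391, 489 and 344 FPKM in IVM and 139, 173 and 232 FPKM in IVO samples. On chromosome 14 from 75997556 to 76024490, it was lower in IVO with a log2FC of -1.18 (SE 0.24, adjusted p = 0.0133), a call kept with each sample left out. Its log2FC was -0.86, -0.85, -0.99 and -0.68 with median-ratio scaling, equal sums, the length trend removed and quantile normalization, under the fold threshold each time. Slc25a14, first described in brain, had 28.8, 29.0 and 23.4 FPKM in IVM and 40.0, 45.9 and 33.5 FPKM in IVO samples, without overlap. The log2FC of Slc25a14 was 0.53 (SE 0.20, adjusted p = 0.102) as deposited and 0.85 (adjusted p = 0.0328) with median-ratio scaling.

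At the outer membrane Mtch1 fell, Vdac2 passed the adjusted p but not the fold threshold, and the values of Vdac1, Vdac3 and Mtch2 overlapped between the groups. Mtch1 and Mtch2 are carrier-like proteins of the outer membrane, of which Mtch2 is known to insert other proteins into it. Mtch1, on chromosome 17 from 29551044 to 29566926, had 6.52, 3.07 and 9.61 FPKM in IVM and 0.88, 0.89 and 1.44 FPKM in IVO samples. Its log2FC was -1.74 (SE 0.38, adjusted p = 0.0169), and the adjusted p was 0.0655 without IVM replicate 1 and 0.052 without IVO replicate 2. Mtch2 had 5.18, 3.9 and 3.24 FPKM in IVM and 2.77, 3.66 and 3.26 FPKM in IVO samples, with overlap.

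Of the channels, Vdac3 was the most abundant, with 115, 177 and 214 FPKM in IVM and 152, 173 and 121 FPKM in IVO samples. The isoform Vdac2, which is known to hold Bak in check, had 97.0, 97.7 and 72.1 FPKM in IVM and 54.3, 54.3 and 49.8 FPKM in IVO samples. The log2FC of Vdac2 was -0.73 (SE 0.19, adjusted p = 0.0327), under the fold threshold, and its adjusted p was 0.178 with median-ratio scaling. With a sample left out it was 0.0763 to 0.0874, except 0.0217 without IVM replicate 3. Vdac1, the usual main isoform of somatic tissues, had 19.1, 12.8 and 19.5 FPKM in IVM and 16.7, 18.2 and 14.95 FPKM in IVO samples. The summed FPKM of the 3 channels as deposited was 275 ± 38.5 (SD, n = 3) for IVM, against 219 ± 30.1 (SD, n = 3) for IVO (p = 0.2, exact permutation test). As a share of the summed FPKM of all genes it was not tested. Slc25a46, an outer membrane protein of mitochondrial dynamics, had 2.11, 2.1 and 1.91 FPKM in IVM and 3.22, 3.31 and 3.67 FPKM in IVO samples, without overlap, at an adjusted p of 0.109.

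**Figure D3:**
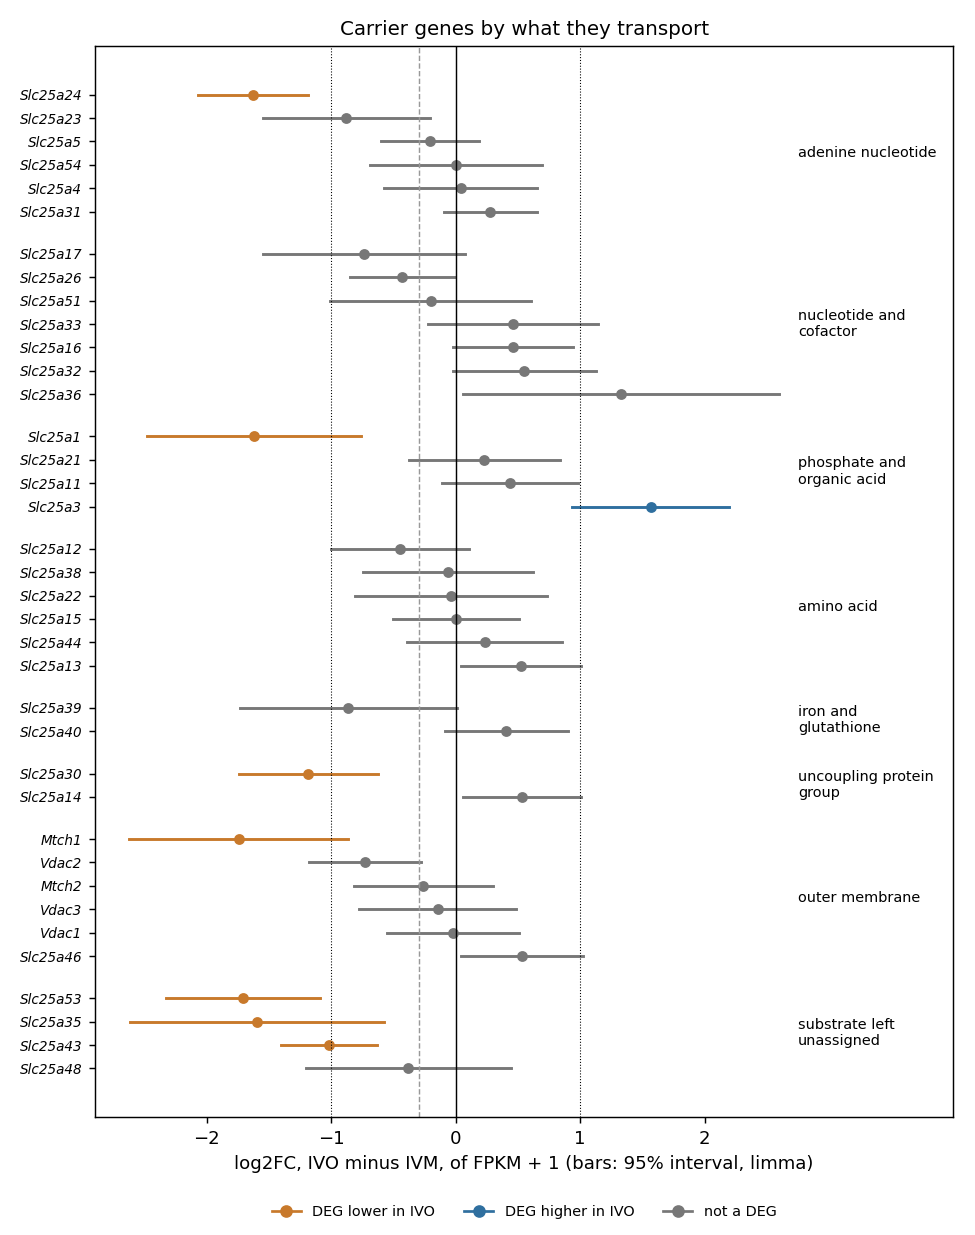
log2FC (IVO minus IVM, FPKM + 1) of 37 tested carriers with 95% intervals from limma, grouped by what they carry or where they sit. The 7 lower DEGs shown are spread over 5 of the groups, Slc25a3 is the only DEG to the right, and the dashed line marks the median of all tested genes at -0.30.

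The set of carriers left here without a substrate held 3 lower DEGs among 4 tested genes, against 17.9% of all tested genes, in a grouping made here that was not tested as a set. Slc25a43, on the X chromosome from 36007219 to 36041267, had 185, 184 and 217 FPKM in IVM and 102, 96.9 and 88.6 FPKM in IVO samples. It was lower in IVO with a log2FC of -1.02 (SE 0.16, adjusted p = 0.00639), which dropped under the fold threshold at -0.94 without IVM replicate 3 and at -0.97 without IVO replicate 3, and at -0.70 with median-ratio scaling. Slc25a53, on the X chromosome from 135881865 to 135939153, had 22.5, 13.9 and 18.4 FPKM in IVM and 3.97, 4.30 and 6.39 FPKM in IVO samples. Its groups were well apart, with a log2FC of -1.71 (SE 0.26, adjusted p = 0.0056), and the call was kept with each sample left out.

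Slc25a35 was a low transcript with a wide spread in IVM, at 9.37, 2.06 and 4.56 FPKM, against 0.92, 0.71 and 0.94 FPKM in IVO samples. Its log2FC was -1.60 (SE 0.43, adjusted p = 0.0372), and the adjusted p was 0.0708 to 0.101 in all fits that left out a sample other than IVM replicate 2. It was 0.0581 to 0.0816 under the other 4 scalings. Slc25a48 had 14.02, 10.1 and 24.3 FPKM in IVM and 12.8, 13.9 and 8.28 FPKM in IVO samples, with overlap.

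Shares within a subfamily do not change when a library is multiplied by a constant, so paralogs were also compared as percentages of their summed FPKM. Of 13 subfamilies, 11 gave a share to test, and in 4 of these the IVM and IVO values did not overlap. Each of the 4 had p = 0.1 in a two-sided exact permutation test, the smallest that 3 against 3 samples allow, and 0.275 after Benjamini-Hochberg adjustment over the 11. Slc25a14 took 6.85%, 5.59% and 6.37% of the FPKM it shares with Slc25a30 and Slc25a27 in IVM and 22.3%, 21.0% and 12.6% in IVO samples. By fragments, taken as FPKM times listed length, its share was 2.749% for IVM and 8.89% for IVO on average, a difference of 6.14 points in place of 12.4. Slc25a39 took 70.1%, 57.6% and 72.4% of the pair with Slc25a40 in IVM and 40.9%, 46.9% and 42.4% in IVO samples. The larger of these 2 glutathione-linked genes was thus Slc25a39 in every IVM sample and Slc25a40 in every IVO sample by FPKM. By fragments, Slc25a39 took 45.15% in IVM replicate 2, so Slc25a40 was the larger in that sample.

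Mtch1 took 55.7%, 44.1% and 74.8% of the pair with Mtch2 in IVM and 24.1%, 19.6% and 30.6% in IVO samples. Slc25a12 took 12.8%, 17.9% and 12.5% of the aspartate/glutamate carriers in IVM and 7.70%, 5.80% and 5.97% in IVO samples, a difference of -7.92 points that was -13.1 points by fragments. Among the ADP/ATP carriers, the tested share of Slc25a4 was 3.24% ± 1.12 (SD, n = 3) for IVM, against 3.28% ± 0.424 (SD, n = 3) for IVO (p = 1.0, exact permutation test). The germ cell form Slc25a31, whose share was not among those tested, took 31.7%, 32.1% and 33.7% in IVM and 38.5%, 40.7% and 41.2% in IVO samples, without overlap. Vdac1 took 6.37% ± 1.90 (SD, n = 3) of the channel FPKM for IVM, against 7.64% ± 0.342 (SD, n = 3) for IVO (p = 0.4, exact permutation test). The remaining tested shares, of Slc25a18, Slc25a28, Slc25a16, Slc25a33 and Slc25a23, overlapped between the groups.

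**Figure D4:**
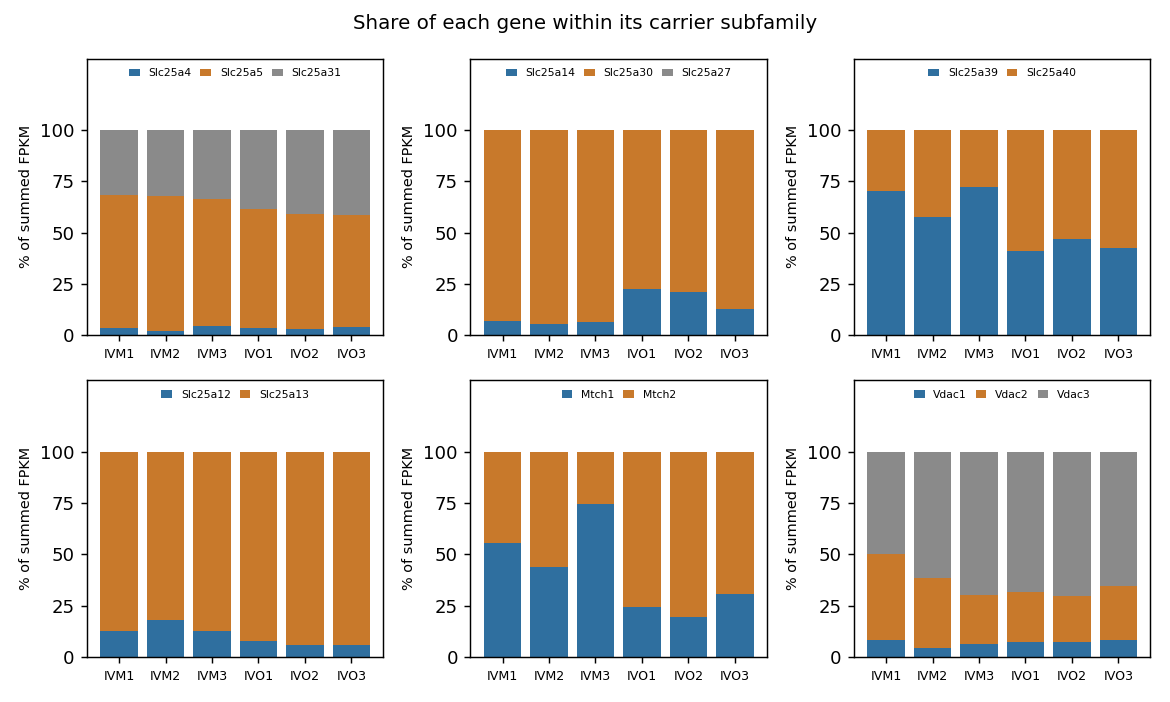
Percent of summed FPKM taken by each gene in 6 carrier subfamilies, with 1 stacked bar per sample. Slc25a14 averages 6.27% of its subfamily in IVM and 18.6% in IVO, and Slc25a39 averages 66.7% of its pair in IVM and 43.4% in IVO.

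Transcript length was compared because short genes were lower in IVO over the whole table. Across the 38 tested carriers, Pearson's r of log2FC with log10 length was 0.083 and Spearman's rho was 0.057, against 0.281 and 0.27 across all tested genes, which share libraries and are not independent replicates. The median listed length was 2041 bases for the tested carriers, 2130 bases for the 8 lower DEGs and 1537 bases for all tested genes.

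The 3′ ends of the messages were read because stored oocyte transcripts are handled through elements near the poly(A) site. In the GENCODE canonical transcripts on GRCm39, the last 100 bases were searched on the message strand for the cytoplasmic polyadenylation element, as TTTTAT or TTTTAAT, and the last 50 bases for the hexamers AATAAA or ATTAAA, where TTTTAAT can overlap AATAAA. Windows of full length were found for 36 of the 38 tested carriers and for 9793 tested protein-coding genes. The element was present in 8 carriers (22.2%) and in 19.3% of all windows, and a hexamer in 27 carriers (75%) and in 77.2%. Of the 7 lower DEGs with a window, 1 held the element, Slc25a53, and so did 178 of 1339 lower DEGs among all genes (13.3%). Whether these annotated ends are those used in the oocytes was not tested. The stretches below end at the hexamer and show the 2 most abundant lower DEGs, which lack the element, above 2 carriers that hold it within 30 bases, with hexamer and element in capitals.
Slc25a24 (chr3:109075723-109075752, plus strand): gctacatagtcactgctcatttgtATTAAA
Slc25a30 (chr14:75997573-75997602, minus strand): ggcataagccttgtttcattatttAATAAA
Slc25a32 (chr15:38954641-38954670, minus strand): tgtggagtTTTTATttaagtgaaaAATAAA
Slc25a48 (chr13:56621998-56622027, plus strand): acatgacTTTTATgtggaaatcatAATAAA
Slc25a24 and Slc25a30 were lower in IVO, while Slc25a32 and Slc25a48 were not DEGs and had a log2FC of 0.55 and -0.38.

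Other transport proteins of the mitochondrial membranes were taken as a second list of 24 genes, of which 16 were tested. They comprised the pyruvate carrier, the calcium uniporter complex, sideroflexins, ABC transporters and related proteins. Of the 16, 3 were lower DEGs and 0 were higher DEGs by limma, against 17.9% and 0.606% of all tested genes, and the median log2FC was -0.31. At an unadjusted p under 0.05 the counts were 4 and 0, and the share of all tested genes at that threshold was not computed. Smdt1, the small subunit that ties the uniporter pore to its calcium sensors, had 40.7, 23.8 and 33.6 FPKM in IVM and 10.4, 8.56 and 7.94 FPKM in IVO samples, a log2FC of -1.74 (SE 0.25, adjusted p = 0.00447). Its listed length is 705 bases. The ABC transporter gene Abcb8 had a log2FC of -1.16 (adjusted p = 0.0276) and lost the call in 4 of the 6 fits that left out a sample, and 1 of the 3 lower DEGs was called without IVM replicate 3, IVO replicate 1 or IVO replicate 2. The pore subunit Mcu had 70.6, 66.5 and 97.7 FPKM in IVM and 71.3, 77.6 and 61.5 FPKM in IVO samples, with overlap.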

How the data were processed

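RNA-seq of 6 pooled samples of MII oocytes, 3 IVM and 3 IVO, was analysed. Per the study's methods, SeqPrep and Sickle were used for read filtering and HISAT2 2.1.0 for alignment to GRCm39, and the authors deposited FPKM values per gene and sample from RSEM 1.3.3. The deposited group means equal the mean of their 3 samples and were not used. A listed gene length in bases was deposited beside them. The authors' count test with DESeq2 1.24.0 was not repeated, since the values are FPKM.

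The FPKM were tested as deposited with limma 3.58.1 (lmFit, eBayes with trend) in R 4.3.3, on log2(FPKM + 1), for genes with a mean of at least 1 FPKM, with Benjamini-Hochberg adjustment over all tested genes. P-values are two-sided. Single values were compared by an exact permutation test in scipy 1.17.1. Depth was inferred from the steps of low FPKM of 8095 genes with 1 annotated transcript between 500 and 1100 bases, and 78.1% to 82.0% of values came out within 0.15 of a whole fragment. Both procedures were checked on simulated data. Amplified fragments are not independent molecules, so floors cover counting error only. Alternatives covered the pseudocount (0.1), the filter (none, or 5 FPKM), 3 other scalings, a fit with the replicate number as a block, eBayes with no trend, removal of each library's length trend by lowess (span 0.3), Ensembl genes only, shares over fragments rebuilt as FPKM times listed length, and each sample left out.

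Genes given in every sample are DEGs, the 10 carriers with the highest mean FPKM and the main ADP/ATP, phosphate, uncoupling, Mtch and Vdac genes, and other carriers were described after their values were seen. The values of 1 carrier and 1 other transporter, both counted in the totals, are not reported here. Members and lists were chosen with earlier results of these data known. Coordinates, biotypes and 3′ ends are those of GENCODE vM39 on GRCm39. Reads of near-identical pseudogenes cannot be separated here.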

Additional observations from a re-analysis of the deposited data

How the results depend on the processing

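The number of carriers called lower, 8 as reported, was 5 of 50 without a filter (7.75% of all tested genes), 5 of 24 with a mean of at least 5 FPKM (22.0%), 5 with the length trend removed (8.03%), and 4 with median-ratio scaling (11.3%), equal sums (11.3%) or quantile normalization (8.4%). The number called higher, 1, was 5 with quantile normalization. At an adjusted p under 0.05 alone, 9 carriers were lower as reported, 4 after quantile normalization and 5 after median-ratio scaling, and 1 was higher as reported, 7 with median-ratio scaling, 10 with quantile normalization, 5 with equal sums (5.76% of all tested genes) and 4 with the length trend removed (6.92%). The median log2FC of the carriers, -0.11, was 0.17 with median-ratio scaling, 0.18 with equal sums, 0.10 with the length trend removed and 0.39 with quantile normalization. Same-numbered samples of the groups did not deviate together (Pearson's r -0.062, -0.018 and -0.107 across genes). This cannot show whether they were collected or prepared together, and the labels name no pairing. The replicate block gave 8 lower (15.4% of all tested genes) and 1 higher (0.489%), and with the length trend removed it gave 1 lower at both thresholds (3.94%). Under the block the adjusted p of Vdac2 was 0.0748. For the other transporters, the 3 lower calls became 1 with median-ratio scaling, equal sums, quantile normalization or the length trend removed and 0 with that trend removed and the replicate block. Their median, -0.31, was -0.11 without a filter, -0.011 with median-ratio scaling, 0.17 with quantile normalization, 0.003 with equal sums and -0.061 with the length trend removed, with or without the block. The cause of these differences was not tested.

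Leaving out each sample gave 4 to 10 carriers lower and 1 to 2 higher at either threshold, 1 to 3 other transporters lower, and a median of the latter from -0.38 to -0.15. Of all tested genes, these fits called 12.1% to 16.9% lower and 0.436% to 0.691% higher as DEGs. At an adjusted p under 0.05 alone the shares were 13.2% to 18.1% lower and 0.579% to 1.53% higher. The second carrier called higher, without IVM replicate 3, was Slc25a36. Signs turned in 33 of the single-gene values under settings that kept every sample, over 10 genes, none of them past the threshold. With median-ratio scaling, quantile normalization, equal sums and the length trend removed (with or without the block), the log2FC was 0.12, 0.30, 0.13 and 0.039 for Slc25a5, 0.16, 0.47, 0.16 and 0.17 for Slc25a22, 0.24, 0.44, 0.25 and 0.13 for Slc25a38, 0.28, 0.49, 0.30 and 0.33 for Vdac1, and 0.18, 0.34, 0.19 and 0.076 for Vdac3. For Slc25a51 it was 0.049, 0.26 and 0.062 with the first 3. With quantile normalization it was 0.20 for Mtch2 (0.006 with equal sums), 0.045 for Slc25a26 and 0.12 for Slc25a48, and Slc25a54 had -0.008 with a pseudocount of 0.1. With each sample left out, the log2FC ranged from -0.16 to 0.17 for Slc25a15, -0.31 to 0.17 for Slc25a22, -0.37 to 0.10 for Slc25a38, -0.21 to 0.17 for Slc25a4, -0.49 to 0.11 for Slc25a51, -0.20 to 0.21 for Slc25a54, -0.21 to 0.076 for Vdac1 and -0.39 to 0.048 for Vdac3. The difference in the share of Slc25a4, 0.034 points, was -0.122 points over rebuilt fragments and -0.574 to 0.524 with each sample left out. By rebuilt fragments, the difference also moved from -7.51 to -12.8 points for Slc25a28 and from -7.58 to -3.58 points for Slc25a33. Ranges with a sample left out also crossed 0 for the shares of Slc25a18 (-1.55 to 1.28), Slc25a23 (-0.0787 to 0.263) and Slc25a28 (-12.7 to 0.472).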
